A study of Homo sapiens with 12 samples.

Results

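Osteopontin (SPP1), endocan (ESM1) and 7 other matricellular or matrix genes (SPARC, THBS1, THBS2, TNC, FN1, CYR61 and CTGF) were followed in 2 human melanoma cell lines. The members were the rows of the gene count table whose symbol equalled one of these 9 names exactly, 9 of 58307 rows that name a gene, and no member's symbol occurred more than once. SPP1 and ESM1 were chosen by values measured in these libraries. Which comparison chose them is not stated, but both are among the genes that the study listed as changed by rapamycin in both lines, so they are described without tests in every comparison. The other 7 are related genes. They and the related gene lists below were also chosen with earlier results of these data known. The p values and shares given for them do not allow for that choice. A375 and SK-MEL-28 are established malignant melanoma lines. Each line was given Etoposide or Etoposide + Rapamycin, which makes 4 groups of 3 libraries and 12 libraries in all. Etoposide is a topoisomerase II poison and rapamycin an inhibitor of mTOR that was used to induce autophagy. Every group received etoposide, so each comparison of treatments measured rapamycin on top of etoposide, and the effect of etoposide itself was not measured. The labels give neither a dose nor a time for these cultures. The study describes the 3 libraries of a group as biological replicates, without saying how the cultures were separated.

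Matricellular proteins are secreted into the extracellular matrix, where they act less as scaffold than as signals. They bind integrins, CD44, CD47 and other receptors, hold growth factors such as TGF-beta near the cell and change how firmly a cell adheres. In melanoma, osteopontin, SPARC, tenascin-C and fibronectin are known for their links with adhesion, invasion and a mesenchymal-like state. CYR61 (current symbol CCN1) and CTGF (CCN2) are textbook targets of the YAP/TEAD transcription complex, which responds to adhesion and cell shape.

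Library totals ranged from 28189501 to 32499337 counts. They exceeded the numbers of clean reads that the study lists for the libraries, so a count cannot be taken as 1 listed read. Levels are given in CPM, the count divided by the TMM-scaled library total and brought to one common total, and members carried between 82 counts (ESM1) and 106147 counts (SPARC) in a library. The lineage of the cells was checked with 8 melanocyte markers. SOX10, a neural crest transcription factor, lay between 166 and 579 CPM over the 12 libraries and S100B between 56.8 and 106 CPM. MITF lay between 12.1 and 29.7 CPM, while the pigment genes TYR, DCT, MLANA, PMEL and TYRP1 each stayed under 3 CPM in every library, so the neural crest markers were present and the pigment program was near the floor.

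The promoters of the members were read from RefSeq (GRCh38.p14), 250 bases before to 50 bases after the annotated start, and 8 of 9 members had an entry; CYR61 had none. The sequences below belong to the members on which the results turn: SPP1 and ESM1, which moved in opposite directions, FN1, whose response differed most between the cell lines, and THBS1 and CTGF, of which CTGF carried the most TEAD matches. They were searched on both strands for the TEAD motif GGAATG, the AP-1 motif TGANTCA, the CRE motif TGACGTCA, the HIF core motif ACGTG and the RUNX motif AACCACA, none of which overlapped another in these windows. Capitals mark the matches.
SPP1: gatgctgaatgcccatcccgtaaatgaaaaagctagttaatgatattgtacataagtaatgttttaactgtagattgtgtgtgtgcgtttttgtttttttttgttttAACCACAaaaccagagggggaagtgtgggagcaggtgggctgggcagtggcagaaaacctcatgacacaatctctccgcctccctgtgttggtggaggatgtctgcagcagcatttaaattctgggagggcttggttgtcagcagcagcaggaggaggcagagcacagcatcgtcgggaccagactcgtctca
ESM1: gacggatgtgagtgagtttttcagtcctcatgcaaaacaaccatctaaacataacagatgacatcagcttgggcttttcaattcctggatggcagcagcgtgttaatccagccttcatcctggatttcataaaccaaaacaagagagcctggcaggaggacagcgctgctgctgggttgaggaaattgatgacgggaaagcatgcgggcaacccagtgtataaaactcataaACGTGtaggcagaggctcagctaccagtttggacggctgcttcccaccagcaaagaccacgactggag
FN1: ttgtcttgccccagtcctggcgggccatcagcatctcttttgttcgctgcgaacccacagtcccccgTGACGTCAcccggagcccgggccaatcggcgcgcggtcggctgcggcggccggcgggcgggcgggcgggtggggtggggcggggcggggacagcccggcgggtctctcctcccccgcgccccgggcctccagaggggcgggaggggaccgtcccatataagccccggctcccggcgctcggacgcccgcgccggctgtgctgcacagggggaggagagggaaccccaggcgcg
THBS1: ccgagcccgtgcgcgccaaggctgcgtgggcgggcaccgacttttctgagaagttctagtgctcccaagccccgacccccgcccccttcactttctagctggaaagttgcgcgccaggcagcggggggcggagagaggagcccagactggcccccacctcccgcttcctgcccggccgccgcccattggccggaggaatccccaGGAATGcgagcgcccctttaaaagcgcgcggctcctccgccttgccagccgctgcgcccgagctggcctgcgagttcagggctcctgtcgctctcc
CTGF: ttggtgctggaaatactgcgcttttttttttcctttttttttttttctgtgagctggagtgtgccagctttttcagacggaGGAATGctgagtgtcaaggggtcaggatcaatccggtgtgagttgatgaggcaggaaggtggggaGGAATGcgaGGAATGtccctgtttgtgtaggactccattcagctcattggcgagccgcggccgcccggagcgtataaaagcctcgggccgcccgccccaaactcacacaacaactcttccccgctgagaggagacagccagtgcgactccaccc

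These windows lie at chr4:87975464-87975763 (plus strand) for SPP1, chr5:54985544-54985843 (minus strand) for ESM1, chr2:215436019-215436318 (minus strand) for FN1, chr15:39580829-39581128 (plus strand) for THBS1 and chr6:131951323-131951622 (minus strand) for CTGF. The ESM1 window lies inside the GENCODE interval of the gene (chr5:54977867-55022671), which on the minus strand starts at 55022671. Its distances thus refer to the RefSeq start alone. The SPP1 window held 1 RUNX match, 143 bases before the start, and the ESM1 window held 1 HIF core match, 18 bases before the start. The FN1 window held 1 CRE match, 183 bases before the start. THBS1 had 1 TEAD match, 46 bases before the start, and CTGF had 3, at 169, 104 and 95 bases before it. Of the members not printed, SPARC had 1 TEAD match, THBS2 had 2 TEAD and 2 HIF core matches, and TNC had no match to the letters searched. Of 35116 promoters of the same length, 14.0% held the TEAD letters, 7.71% the AP-1 letters, 1.85% the CRE letters, 21.4% the HIF core letters and 4.27% the RUNX letters. A match describes the letters only, and the AP-1 letters were in none of the 8 windows.

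On a scale that allows genes to be compared, CPM per kilobase of the MANE Select transcript, SPARC had the highest level of the members in every group. With etoposide it stood at 959 ± 19.3 (SD, n = 3) in A375 and at 935 ± 8.80 in the other line. THBS1 followed at 179 ± 12.1 and 210 ± 1.22 CPM per kilobase. TNC was the third in each group, and with etoposide in A375 its level of 118 ± 11.0 lay within the spread of FN1 at 112 ± 8.49. In A375, SPP1 went from 7.71 ± 0.896 to 2.62 ± 0.326 CPM per kilobase when rapamycin was present, and ESM1 went from 1.95 ± 0.266 to 7.67 ± 1.17, so ESM1 passed from below SPP1 to above it. In SK-MEL-28, SPP1 was the fourth member in order with etoposide alone, at 43.1 ± 1.65, and lay beside FN1 and CTGF with rapamycin, at 22.8 ± 1.53 against 22.9 ± 2.24 and 21.5 ± 2.74, which did not differ beyond their spread. THBS2 was low throughout, between 1.29 and 2.80 CPM per kilobase on average.

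**Figure D1:**
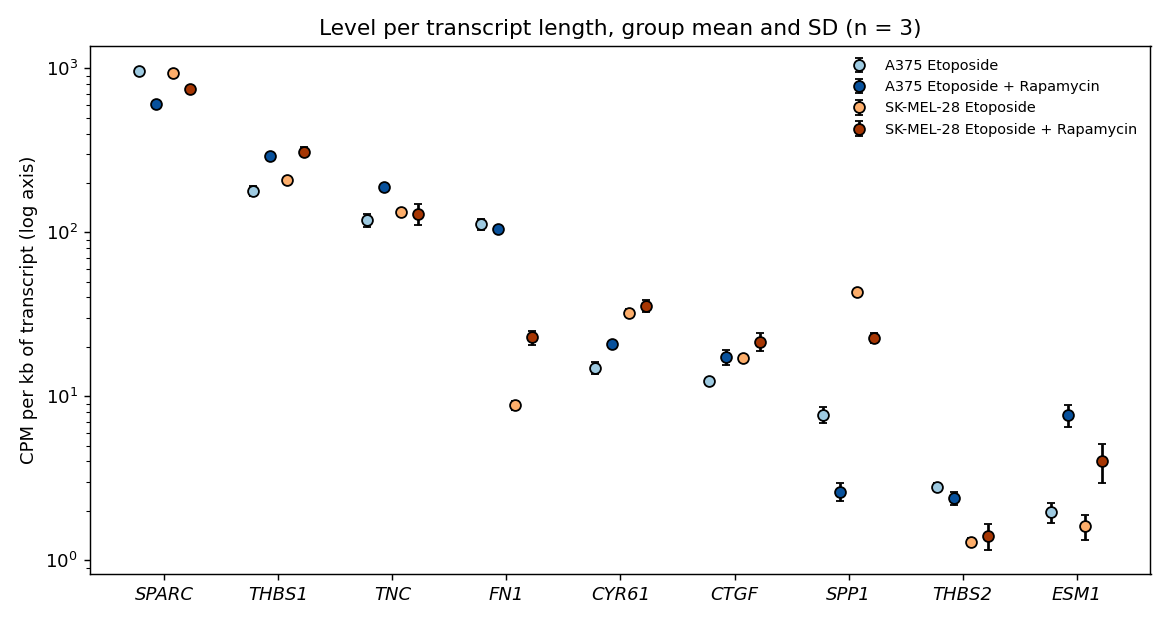
Level of each member in CPM per kilobase of transcript (log axis), as the mean and SD of 3 libraries in each of the 4 groups. SPARC sits at 959 and 935 in the etoposide groups, and in A375 ESM1 lies below SPP1 with etoposide and above it with etoposide + rapamycin.

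SPP1 (chr4:87975667-87983532, plus strand, GRCh38, 7 exons in the MANE Select transcript) encodes osteopontin, a secreted phosphoprotein that binds integrins and CD44. In A375 its levels were 10.5, 12.3 and 13.3 CPM with etoposide and 4.24, 4.51 and 3.52 CPM with etoposide + rapamycin. In SK-MEL-28 they were 67.0, 70.0 and 64.8 CPM with etoposide and 32.8, 36.8 and 37.1 CPM with etoposide + rapamycin. The rapamycin libraries were the low ones in both lines and the groups did not overlap in either. The fold change was 2.93 lower in A375 (log2 -1.55, SE 0.14, 95% interval -1.85 to -1.25) and 1.90 lower in SK-MEL-28 (log2 -0.92, SE 0.063, interval -1.06 to -0.79). These values and those of ESM1 are descriptions and carry no p value. The intervals of both genes do not allow for their choice from the same libraries and are not tests.

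ESM1 (chr5:54977867-55022671, minus strand, 3 exons) encodes endocan, a secreted dermatan sulfate proteoglycan first known from endothelial cells. In A375 its levels were 3.77, 3.78 and 4.74 CPM with etoposide and 15.5, 18.8 and 14.0 CPM with etoposide + rapamycin. In SK-MEL-28 they were 2.68, 3.77 and 3.65 CPM with etoposide and 6.10, 10.7 and 8.61 CPM with etoposide + rapamycin. Every rapamycin library was above every etoposide library of its line. The fold change was 3.94 higher in A375 (log2 1.98, SE 0.14, 95% interval 1.67 to 2.29) and 2.50 higher in SK-MEL-28 (log2 1.32, SE 0.20, interval 0.88 to 1.76), where the 3 rapamycin libraries were spread more widely. ESM1 had the fewest counts of the members, 82 to 558 in a library.

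Since endocan is named for endothelial cells and osteopontin is abundant in macrophages, markers of other cell types were read beside them. Of the 5 endothelial markers, CDH5, which defines endothelial junctions, was between 0 and 0.85 CPM in the 12 libraries, and KDR made up most of the summed level at 55.5 to 86.7 CPM. PECAM1, VWF and TEK were each at 6.10 CPM or less in every library. The summed endothelial level was 85.7 to 96.9 CPM in A375 with etoposide and 62.7 to 65.8 CPM with etoposide + rapamycin. In SK-MEL-28 it was 66.3 to 71.0 against 68.9 to 73.8 CPM. The part of endothelial cells in the ESM1 values was not tested. The leukocyte markers PTPRC (0 to 0.63 CPM), CD14 (0 to 0.20 CPM) and CD3E (0 to 0.21 CPM) were at or near 0 in every library, and CD68 and LYZ, which macrophages express highly, made up most of the summed level of the 5 leukocyte markers. That sum was 39.98 to 53.3 CPM with etoposide against 39.6 to 59.6 CPM with rapamycin in A375, and 53.5 to 55.5 against 40.8 to 60.1 CPM in SK-MEL-28. LYZ was lower with rapamycin, as SPP1 was, at 16.5 to 16.9 against 5.81 to 7.20 CPM in A375 and at 30.5 to 33.4 against 14.8 to 19.4 CPM in SK-MEL-28. CD68 was higher on average with rapamycin, though its ranges overlapped in both lines. It lay at 23.2 to 35.7 against 32.01 to 52.0 CPM in A375 and at 19.6 to 22.7 against 21.0 to 45.2 CPM in SK-MEL-28. By the edgeR test described below, its log2 fold change was 0.53 in A375, which passed on the adjusted p and not on the fold change. In SK-MEL-28 it was 0.64, and CD68 was called higher. The part of such cells in the SPP1 values was not tested. The summed level of 7 fibroblast markers was 25.2 to 34.4 CPM in A375 and 40.8 to 52.8 CPM in SK-MEL-28, with COL1A2 at 0.33 CPM or less. This sum was lower with rapamycin in both lines, but its genes did not all move alike. In SK-MEL-28, LUM was at 22.1 to 28.9 CPM with etoposide and 14.8 to 17.1 CPM with etoposide + rapamycin. PDGFRB went the other way there, from 13.4 to 16.1 CPM to 17.2 to 21.2 CPM. In A375, LUM was likewise lower with rapamycin and PDGFRB higher. The part of such cells in the members' changes was not tested. In bulk RNA, fewer cells of a type and less RNA per cell cannot be told apart.

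**Figure D2:**
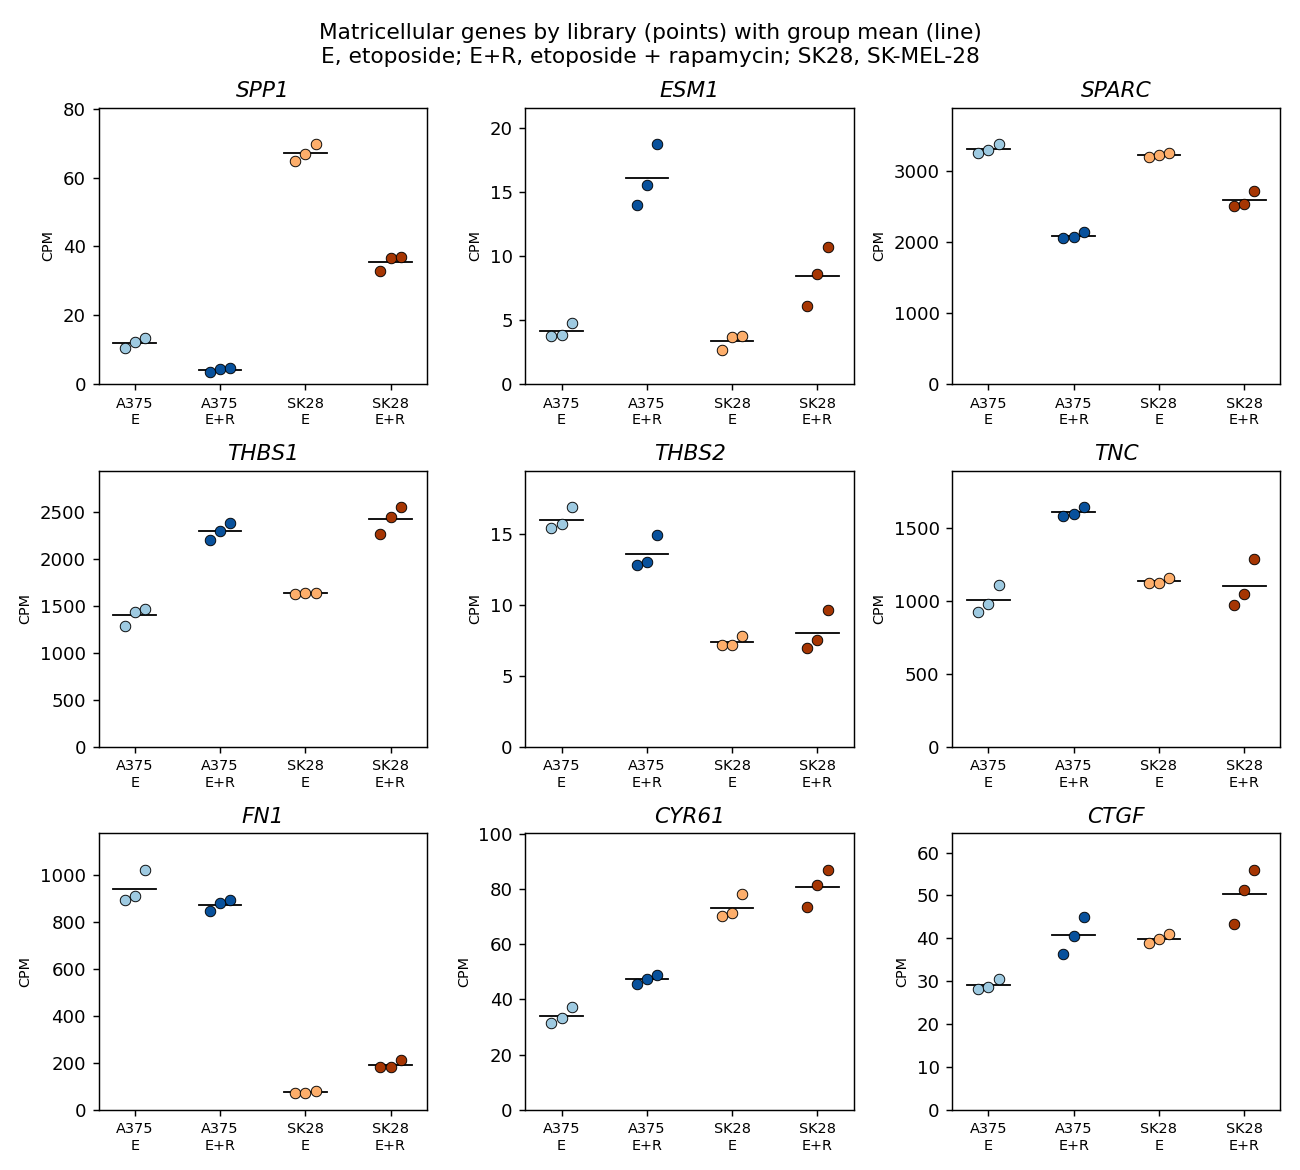
Level of each member in CPM (linear axes from 0, one panel per gene), with a point for each of the 3 libraries of a group and a line at the group mean; points are drawn in order of value. SPP1 is lower and ESM1 higher with etoposide + rapamycin in both cell lines without overlap, whereas FN1 is apart only in SK-MEL-28, at 69.8 to 78.2 CPM against 180 to 213 CPM.

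The other 7 members were tested with edgeR's quasi-likelihood test, fitted over all genes of a line with Benjamini-Hochberg adjustment. A gene was called at an adjusted p under 0.05 with a fold change over 1.5. In A375, 3 of these 7 members were called, against 5.89% of the 18844 genes tested: THBS1 and TNC rose, where 3.09% of genes were called higher, and SPARC fell, where 2.8% were called lower. In SK-MEL-28, 1 of the 7 was called, FN1, which rose, against 4.99% of 18897 genes (1.85% called higher and 3.14% called lower). On the adjusted p alone, 5 of the 7 passed in A375 (against 28.1% of all genes) and 4 of the 7 in SK-MEL-28 (against 19% of all genes). The groups did not overlap for 6 of the 7 in A375 (against 42.6% of all genes) and for 4 of the 7 in SK-MEL-28 (35.9%). All 9 members passed the filter on low counts in each line.

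SPARC (chr5:151661096-151686975, minus strand, 10 exons) encodes a collagen- and calcium-binding glycoprotein, and was the only one of the 7 that fell past the threshold in either line. In A375 its levels were 3253, 3291 and 3383 CPM with etoposide and 2137, 2048 and 2066 CPM with etoposide + rapamycin, which did not overlap. The log2 fold change was -0.66 (SE 0.037, adjusted p = 2.67e-07, edgeR). In SK-MEL-28 its levels were 3258, 3197 and 3225 CPM with etoposide against 2720, 2503 and 2528 CPM, again without overlap. There the log2 fold change was -0.32 (SE 0.037), which passed on the adjusted p (6.34e-05, edgeR) and not on the fold change. CLMAT3, a noncoding gene on the opposite strand within the SPARC locus, had 304 counts over the 12 libraries.

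The thrombospondins are large adhesive glycoproteins that bind CD36 and CD47; thrombospondin-1 also activates latent TGF-beta. THBS1 (chr15:39581079-39599466, plus strand, 22 exons) was at 1467, 1289 and 1431 CPM in A375 with etoposide and at 2196, 2380 and 2293 CPM with etoposide + rapamycin. In SK-MEL-28 it was at 1638, 1639 and 1622 CPM with etoposide and at 2263, 2441 and 2553 CPM with etoposide + rapamycin. The rapamycin libraries were the high ones in both lines, with no overlap. The log2 fold change was 0.72 in A375 (SE 0.052, adjusted p = 1.50e-06, edgeR) and 0.56 in SK-MEL-28 (SE 0.043, adjusted p = 2.26e-06). The latter is a fold change of 1.48, just under the threshold, and without SK-MEL-28 Etoposide + Rapamycin replicate 1 it was called at a log2 fold change of 0.61. FSIP1 on the opposite strand and a second name of the locus, AC037198.2, had 476 and 853 counts over the 12 libraries, and how reads were divided between such names is not stated.

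THBS2 (chr6:169215780-169254050, minus strand, 22 exons), the close relative of THBS1, stayed low. Its levels in A375 were 15.7, 15.4 and 16.9 CPM with etoposide and 14.9, 13.0 and 12.8 CPM with etoposide + rapamycin. In SK-MEL-28 they were 7.19, 7.81 and 7.14 CPM with etoposide and 9.65, 6.93 and 7.51 CPM with etoposide + rapamycin. The A375 groups stood just apart and those of SK-MEL-28 overlapped. Neither difference passed the test, with log2 fold changes of -0.23 (SE 0.097, adjusted p = 0.100, edgeR) in A375 and 0.12 (SE 0.14, 95% interval -0.18 to 0.42, adjusted p = 0.608) in SK-MEL-28. The SK-MEL-28 value became -0.03 without SK-MEL-28 Etoposide + Rapamycin replicate 1.

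TNC (chr9:115019575-115118207, minus strand, 28 exons) encodes tenascin-C, a hexameric glycoprotein that loosens adhesion to fibronectin. In A375 its levels were 1109, 982 and 927 CPM with etoposide and 1583, 1597 and 1648 CPM with etoposide + rapamycin. The groups were well apart, and the log2 fold change was 0.68 (SE 0.059, adjusted p = 5.81e-06, edgeR). In SK-MEL-28 its levels were 1125, 1120 and 1161 CPM with etoposide and 1290, 971 and 1049 CPM with etoposide + rapamycin. One rapamycin library of SK-MEL-28 lay above and the other two below all etoposide libraries. Its log2 fold change of -0.044 (SE 0.079, 95% interval -0.22 to 0.13, adjusted p = 0.757, edgeR) was 0.04 without SK-MEL-28 Etoposide + Rapamycin replicate 2 and -0.17 without replicate 1 of that group, where it passed on the adjusted p (0.0299) and not on the fold change.

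FN1 (chr2:215360440-215436073, minus strand, 46 exons) encodes fibronectin, a main adhesive protein of the matrix and the ligand of integrin alpha5 beta1. In SK-MEL-28 its levels were 78.2, 69.8 and 73.2 CPM with etoposide and 182, 180 and 213 CPM with etoposide + rapamycin, with the rapamycin libraries the high ones. This was a 2.60-fold rise (log2 1.38, SE 0.072, adjusted p = 1.07e-07, edgeR). In A375 its levels were 1023, 908 and 892 CPM with etoposide and 847, 880 and 893 CPM with etoposide + rapamycin. These overlapped, with a log2 fold change of -0.10 (SE 0.054, 95% interval -0.22 to 0.014, adjusted p = 0.182, edgeR). Even after the rise, FN1 in SK-MEL-28 stayed below every A375 library.

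CYR61 and CTGF encode cysteine-rich CCN proteins that bind integrins and heparan sulfate. CYR61 (chr1:85580761-85584589, plus strand, 5 exons) was at 31.5, 33.3 and 37.2 CPM in A375 with etoposide and at 45.8, 47.4 and 48.8 CPM with etoposide + rapamycin. In SK-MEL-28 it was at 71.5, 78.3 and 70.2 CPM with etoposide and at 73.6, 87.1 and 81.6 CPM with etoposide + rapamycin. The groups were apart in A375 and overlapped in SK-MEL-28. The log2 fold change of 0.48 in A375 (SE 0.069, adjusted p = 0.000291, edgeR) passed on the adjusted p and not on the fold change, and that of 0.14 in SK-MEL-28 (95% interval -0.0052 to 0.28, adjusted p = 0.175) passed on neither.

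CTGF (chr6:131948176-131951372, minus strand, 5 exons) was at 30.4, 28.1 and 28.6 CPM in A375 with etoposide and at 36.4, 40.6 and 45.0 CPM with etoposide + rapamycin. In SK-MEL-28 it was at 38.9, 39.9 and 41.0 CPM with etoposide and at 43.4, 56.1 and 51.3 CPM with etoposide + rapamycin. All rapamycin libraries were above the etoposide libraries of their line. The log2 fold changes of 0.49 in A375 (SE 0.082, adjusted p = 0.000849, edgeR) and 0.33 in SK-MEL-28 (SE 0.082, adjusted p = 0.0142) passed on the adjusted p and fell short of the fold change threshold. In SK-MEL-28 the adjusted p was 0.0647 without SK-MEL-28 Etoposide + Rapamycin replicate 2 and 0.0523 without replicate 3 of that group.

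**Figure D3:**
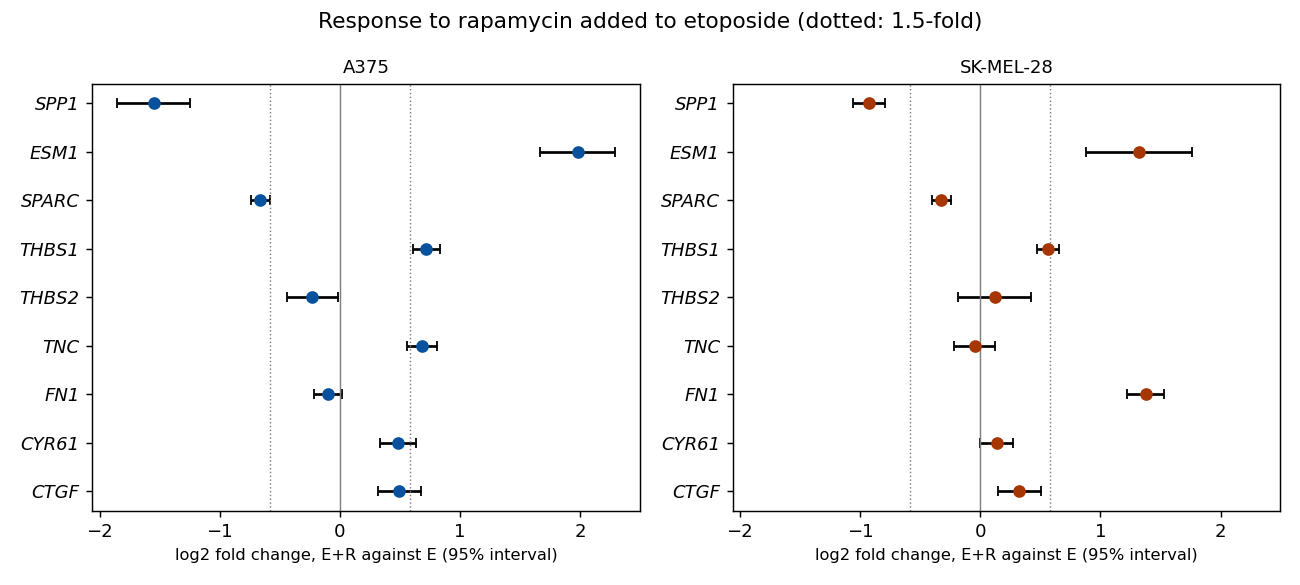
Log2 fold change of each member, etoposide + rapamycin against etoposide, with its 95% interval from edgeR, for A375 (left) and SK-MEL-28 (right); dotted lines mark a fold change of 1.5 in either direction. SPP1 and SPARC lie to the left in both lines and ESM1 and THBS1 to the right, while TNC lies past the line only in A375 and FN1 only in SK-MEL-28. The intervals of SPP1 and ESM1, which were chosen from these libraries, are not tests.

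Whether a member responded differently in the cell lines was tested as an interaction in one fit of all 12 libraries, where a gene was called at an adjusted p under 0.05 with no fold change threshold. Of the 7 members tested, 3 were called, FN1, TNC and SPARC, against 5.62% of 20101 genes. The FN1 response was higher in SK-MEL-28 than in A375 by 1.49 on the log2 scale (SE 0.094, adjusted p = 2.35e-07, edgeR). The TNC response was lower in SK-MEL-28 (difference -0.72, SE 0.11, adjusted p = 0.00129), and SPARC fell less there (difference 0.35, SE 0.051, adjusted p = 0.000817). For these 3 genes the direction and the call held under each alternative that was run for this test.

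The remaining differences did not pass. For CYR61 the difference was -0.34 (SE 0.10, 95% interval -0.55 to -0.12, adjusted p = 0.0624, edgeR), and the adjusted p ran from 0.0129 to 0.153 over the alternatives, so this member sat at the threshold. For CTGF it was -0.16 (95% interval -0.42 to 0.10, adjusted p = 0.526), for THBS1 -0.15 (interval -0.30 to 0.0038, adjusted p = 0.258) and for THBS2 0.36 (interval 0.0045 to 0.71, adjusted p = 0.238). A p value that missed the threshold does not show that the lines responded alike. For SPP1 and ESM1 the differences are given without a test: 0.63 (SE 0.14) for SPP1, a smaller fall in SK-MEL-28, and -0.65 (SE 0.27) for ESM1, a smaller rise.

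**Figure D4:**
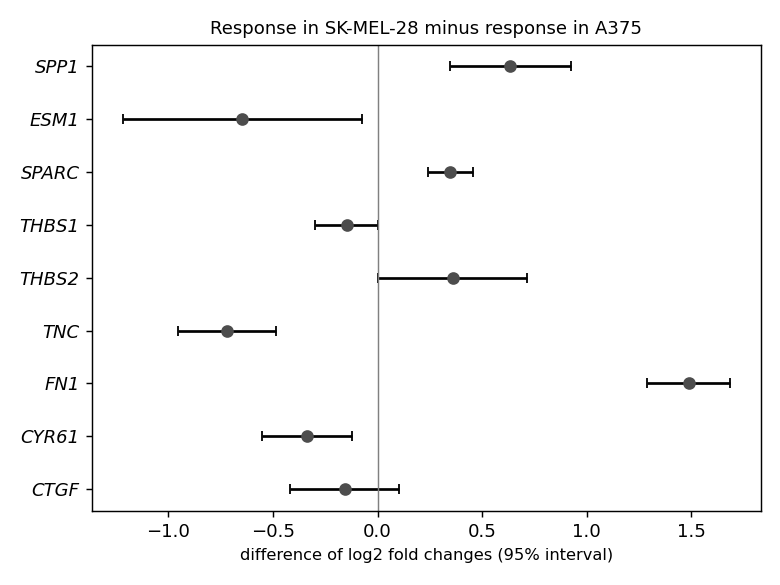
Difference of the log2 fold changes (response in SK-MEL-28 minus response in A375) for each member, with its 95% interval from one edgeR fit of 12 libraries. FN1 at 1.49 and TNC at -0.72 lie farthest from 0, and the interval of CTGF spans 0. The intervals of SPP1 and ESM1, which were chosen from these libraries, are not tests.

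The cell lines also differed in the members' levels before rapamycin. In the 6 etoposide libraries, 3 of the 7 members tested were called between SK-MEL-28 and A375, against 13% of 19025 genes, and 6 of 7 passed on the adjusted p alone, against 31.7%. This comparison shares its etoposide libraries with those above. CYR61 was 2.16-fold higher in SK-MEL-28 (log2 1.11, SE 0.074, adjusted p = 1.49e-07, edgeR), where 5.7% of genes were called higher. FN1 was 12.8-fold lower in SK-MEL-28 (log2 -3.67, SE 0.068, adjusted p = 1.51e-12) and THBS2 2.16-fold lower (log2 -1.11, SE 0.10, adjusted p = 2.84e-06), where 7.32% were called lower. SPP1, described without a test, was 5.60-fold higher in SK-MEL-28 (log2 2.48, SE 0.086), and even with rapamycin it stayed at 32.8 CPM or more there, against at most 13.3 CPM in A375.

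The other members were closer between the lines. CTGF (log2 0.46, SE 0.067, adjusted p = 0.000164, edgeR), THBS1 (log2 0.23, SE 0.051, adjusted p = 0.00410) and TNC (log2 0.18, SE 0.060, adjusted p = 0.0392) passed on the adjusted p and not on the fold change. For TNC the adjusted p reached 0.164 over the alternatives. SPARC (log2 -0.036, SE 0.040, adjusted p = 0.550) did not pass, and its libraries overlapped. The groups did not overlap for 6 of the 7, against 44.6% of all genes. ESM1, described without a test, had a log2 difference of -0.28 (95% interval -0.69 to 0.13), and its libraries overlapped too.

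Over the 12 libraries, the genes most like SPP1 by Pearson's r of log2 CPM, among 12712 genes with a mean of at least 100 counts, were TM7SF3 (r = 0.997), HSDL2 (r = 0.996) and PDP1 (r = 0.994). Those most like ESM1 were GPAA1 (r = 0.986), TELO2 (r = 0.985) and ACTG1 (r = 0.974). These are descriptions over 12 libraries that fall into 4 groups, so the points of a group share their cell line and treatment, and they carry no test. No other member was among these 6 genes.

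Of 30 other matricellular genes, the relatives of the members by family or role, 18 were tested in A375 and 20 in SK-MEL-28. With rapamycin, 1 of 18 was called in A375, a share near the 5.89% of all genes, and 2 of 20 in SK-MEL-28, against 4.99%. All of these calls were lower, where 2.8% of all genes were called lower in A375 and 3.14% in SK-MEL-28. NOV (CCN3), the family member of CYR61 and CTGF, was called lower in both, with log2 fold changes of -0.86 in A375 (adjusted p = 3.68e-05, edgeR) and -0.93 in SK-MEL-28 (adjusted p = 1.79e-05), the opposite direction to CTGF. TGFBI, an integrin ligand induced by TGF-beta, was called lower in SK-MEL-28 (log2 -0.84, adjusted p = 4.90e-07) and fell by 0.57 on the log2 scale in A375 (adjusted p = 1.35e-05), which missed the fold change threshold. The list had a median log2 fold change of -0.23 for A375 and -0.22 for SK-MEL-28, and all genes tested had -0.0051 and 0.0053. The galectin LGALS1, the list's most abundant gene, had a log2 fold change of -0.019 in A375 (adjusted p = 0.821) and -0.45 in SK-MEL-28 (adjusted p = 5.01e-05). The responses differed between the lines for 4 of 20 genes tested (against 5.62% of all genes), each with the lower log2 fold change in SK-MEL-28, led by SPOCK1 (difference -0.93, adjusted p = 6.62e-06), a proteoglycan of the SPARC family. Of 19 tested between the lines under etoposide, where 13% of all genes were called, 3 were called higher in SK-MEL-28, led by the fibulin EFEMP1 (log2 2.43, adjusted p = 0.000170), and 2 lower. EFEMP1 had few counts, with a mean of 27.7 over the 12 libraries.

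The receptors through which these proteins act include integrin chains. Of 15 receptor genes tested in A375, 1 was called (against 5.89% of all genes), ITGB2, which rose by a log2 fold change of 0.97 (adjusted p = 0.00641, edgeR). Of 16 tested in SK-MEL-28, 3 were called (against 4.99% of all genes): ITGB2 rose (log2 0.72, adjusted p = 0.00130), and the alpha chains ITGA9 (log2 -0.89, adjusted p = 0.000190) and ITGA4 (log2 -0.60, adjusted p = 0.000137), which bind osteopontin, tenascin-C or fibronectin, fell. ITGB3, the most abundant by count, fell by 0.35 on the log2 scale in A375 (adjusted p = 0.000441) and by 0.49 in SK-MEL-28 (adjusted p = 0.000782), below the fold change threshold in both. ITGA5, the fibronectin receptor chain, had a log2 fold change of 0.13 in A375 (adjusted p = 0.0528) and -0.27 in SK-MEL-28 (adjusted p = 0.00297), and this difference between the lines passed (-0.39, adjusted p = 0.00254). The difference passed for 5 of 16 receptors in all (against 5.62% of all genes), led by ITGA9 (-1.36, adjusted p = 9.32e-05). The list had a median of -0.0034 for A375 and -0.20 for SK-MEL-28. Under etoposide, 8 of 16 receptors were called between the lines (against 13% of all genes), 4 in each direction, with ITGA4 higher (log2 1.93, adjusted p = 3.21e-09) and ITGB8 lower (log2 -1.62, adjusted p = 1.51e-10) in SK-MEL-28.

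Among 15 enzymes that cleave, cross-link or phosphorylate these proteins, 11 were tested in A375, where 5.89% of all genes were called, and 2 rose: MMP9 (log2 1.78, adjusted p = 1.94e-07, edgeR), a gelatinase that cleaves osteopontin, and TGM2 (log2 0.81, adjusted p = 1.18e-06), a transglutaminase that cross-links fibronectin. In SK-MEL-28, 12 were tested and 4 called (against 4.99% of all genes), of which MMP9 rose (log2 0.66, adjusted p = 0.0336) and 3 fell, MMP3 (log2 -2.37, adjusted p = 6.38e-05), LOXL2 (log2 -0.98, adjusted p = 2.88e-07) and MMP1 (log2 -0.66, adjusted p = 0.00312). MMP2, the most abundant of them by count, passed on the adjusted p in both lines, with log2 fold changes of 0.25 (adjusted p = 0.00105) and 0.55 (adjusted p = 2.73e-06), and not on the fold change. The responses of 5 of 12 enzymes differed between the lines (against 5.62% of all genes), among them MMP9 (-1.12, adjusted p = 0.00393) and TGM2 (-0.87, adjusted p = 9.32e-05). The list had a median of 0.25 for A375 and -0.060 for SK-MEL-28. Of 12 tested between the lines under etoposide, 7 were called (against 13% of all genes), 4 higher in SK-MEL-28, with MMP3 in front (log2 4.75, adjusted p = 1.17e-07), and 3 lower, with FAM20C, the kinase of osteopontin, at a log2 of -1.74 (adjusted p = 1.03e-09). MMP3 was a gene of low counts, with a mean of 51.1 over the 12 libraries.

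CYR61 and CTGF were set beside 20 other YAP/TEAD target genes, all of which were tested. In A375, where 5.89% of all genes were called, 5 rose and 1 fell: NUAK2 (log2 0.88, adjusted p = 4.44e-05, edgeR), FJX1 (log2 0.79, adjusted p = 0.000150) and FOXF2 (log2 0.70, adjusted p = 0.00222) were among those that rose, and TGFB2 (log2 -0.90, SE 0.31, adjusted p = 0.0472) fell. TGFB2 had a mean of only 36.7 counts over the 12 libraries and is also counted among the TGF-beta genes below. In SK-MEL-28, 4 were called (against 4.99% of all genes): FOXF2 (log2 0.67, adjusted p = 0.0171) and NUAK2 (log2 0.67, adjusted p = 0.0218) rose, while ANKRD1 (log2 -1.48, adjusted p = 4.93e-05) and CCDC80 (log2 -1.13, adjusted p = 0.000310) fell. The list had a median of 0.28 for A375 and 0.14 for SK-MEL-28, of the same sign as the log2 fold changes of CYR61 and CTGF, with genes called in both directions. The most abundant, IGFBP3, had log2 fold changes of 0.25 in A375 (adjusted p = 0.000374) and -0.044 in SK-MEL-28 (adjusted p = 0.762). The responses of 2 of the 20 differed between the lines (against 5.62% of all genes), FJX1 (-0.64, adjusted p = 0.0148) and MYOF (-0.27, adjusted p = 0.0445). Under etoposide 10 of 20 were called between the lines (against 13% of all genes), 5 each way.

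TGF-beta, which induces FN1, CTGF, SPARC and TGFBI in many cells, was represented by 14 genes of its ligands, receptors and SMADs. In A375, 2 were called (against 5.89% of all genes), both lower (against 2.8% called lower). They were TGFB2 (above) and LTBP1 (log2 -0.80, adjusted p = 0.00263, edgeR), which holds latent TGF-beta in the matrix. In SK-MEL-28, 1 was called (against 4.99% of all genes), LTBP1 (log2 -0.87, adjusted p = 0.00373), where 3.14% of all genes were called lower. TGFB1, the most abundant by count, had log2 fold changes of -0.0011 (adjusted p = 0.990) and 0.077 (adjusted p = 0.368). SMAD3, a transcriptional effector of the pathway, had 0.58 in A375 (adjusted p = 5.36e-06), just short of a 1.5-fold change, against 0.086 in SK-MEL-28 (adjusted p = 0.396), and this difference passed (-0.48, adjusted p = 0.00267). The medians were -0.11 and -0.14. The response differed for 3 of 14 genes (against 5.62% of all genes), and under etoposide 2 of 14 were called, both higher in SK-MEL-28, a share near the 13% of all genes.

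**Figure D5:**
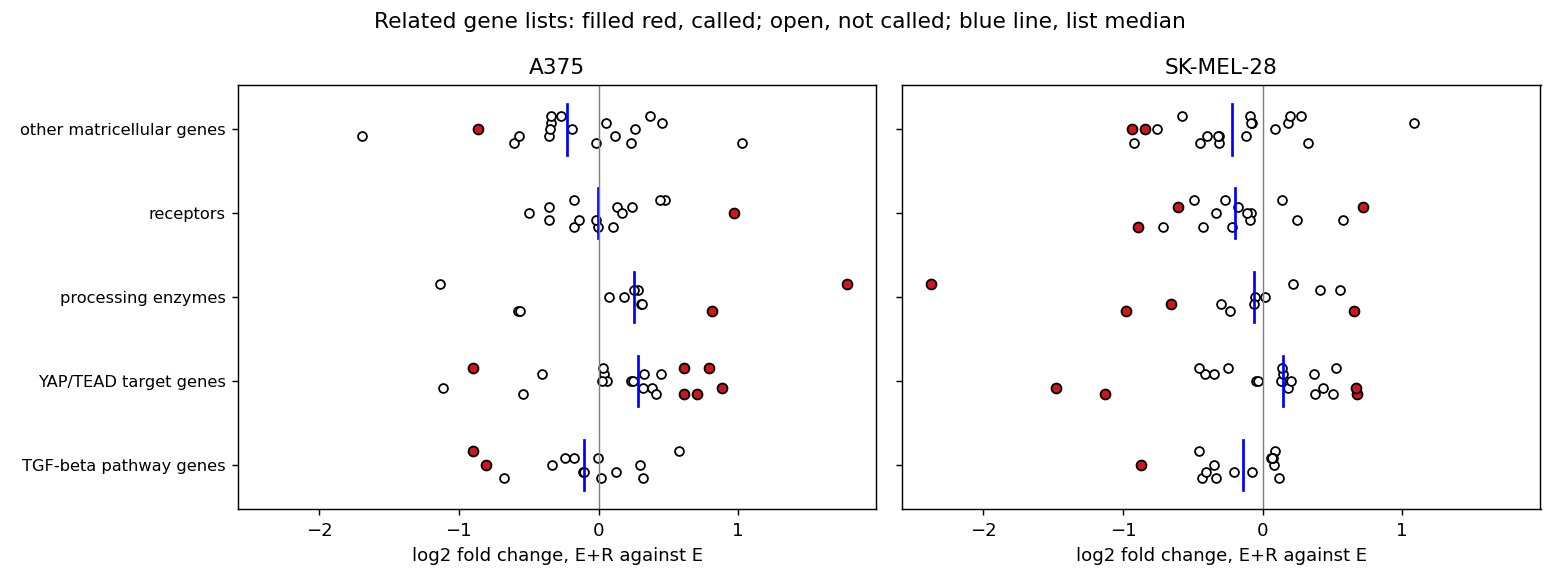
Log2 fold change of each tested gene of the 5 related lists, etoposide + rapamycin against etoposide, in A375 (left) and SK-MEL-28 (right); filled points were called, open points were not, and the blue line is the list median. The other matricellular genes have called points only on the left of 0 (1 in A375, 2 in SK-MEL-28), as do the TGF-beta pathway genes (2 in A375, 1 in SK-MEL-28). The YAP/TEAD target genes have them on both sides. Of all genes tested, 5.89% were called in A375 and 4.99% in SK-MEL-28.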

How the data were processed

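The authors sequenced polyA-enriched RNA on an Illumina instrument, aligned clean reads to GRCh38 (hg38) with HISAT2 and estimated expression with StringTie and an Ensembl annotation. They deposited raw counts per gene and library, without normalization or pooling of replicates. How StringTie coverage was turned into counts and whether strand was used are not stated, so no counting intervals were derived and genes on opposite strands of a locus may share reads. Of 58312 rows, 5 named no gene (0.00099% to 0.0053% of the counts of a library) and were left out. Another 1892 rows share a gene name and were kept separate.

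Counts were analysed with edgeR 4.0.16 in R 4.3.3 (filterByExpr with a minimum count of 10, TMM, glmQLFit and glmQLFTest, p adjusted by Benjamini-Hochberg over the genes tested). The 2 cell lines were fitted separately, the 6 etoposide libraries were fitted for the difference between cell lines, and one fit of all 12 libraries gave the interaction. Calls needed an adjusted p under 0.05 together with a 1.5-fold change, or the adjusted p alone for the interaction. Standard errors were derived from the log2 fold change and its F statistic, and intervals are at 95%. Log2 CPM used a prior count of 2. The scripts were tested on simulated data with known changes.

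The members and the gene lists were chosen with earlier results of these data known. The genes named from each related list are the 4 called genes with the largest absolute log2 fold change in a comparison and the 2 with the highest mean count, and not all of these are printed. The genes most like SPP1 and ESM1 are the 3 with the highest r. Positions and transcript lengths came from GENCODE (GRCh38) and promoters from RefSeq; all 9 members matched the former, CYR61 and CTGF by their current symbols.

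The settings varied were the test (DESeq2 1.42.0), the scaling (RLE or library totals), the filter (1 count in any library, or 10 counts in each), the replicate number as a block, no fold change threshold, one fit of all libraries, summed rows of the same symbol, and each library left out in turn.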

Additional observations from a re-analysis of the deposited data

Results flagged for a closer look

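By the interaction test in edgeR, 3 of the 7 members tested responded to rapamycin differently in A375 and SK-MEL-28. FN1 responded by 1.49 more on the log2 scale in SK-MEL-28 than in A375 (adjusted p = 2.35e-07, higher in 3 of 3 SK-MEL-28 libraries with rapamycin). The difference was -0.72 for TNC (adjusted p = 0.00129), whose 3 A375 libraries with rapamycin were all higher than those with etoposide, and 0.35 for SPARC (adjusted p = 0.000817), which was lower with rapamycin in all 3 libraries of both lines. With 3 libraries in a group, single libraries were not screened for standing apart from their group.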

How the results depend on the processing

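Without the fold change threshold, 5295 genes and 5 of the 7 members were called in A375, 3582 genes and 4 members in SK-MEL-28, and 6037 genes and 6 of the 7 members between the lines under etoposide. For the difference of responses, where the count was 1130 genes, DESeq2 gave 1736, the filter of 1 count in any library 658 and the replicate block 620. Libraries of the same replicate number showed no shared deviation, with correlations of -0.030 to 0.021. This does not show whether the cultures were set up in pairs. With the replicate block, 1034 genes were called in A375, 897 in SK-MEL-28 and 2423 between the lines, and of the members' calls it moved that of CYR61 in the difference of responses (adjusted p = 0.0476). That difference also passed with DESeq2 (adjusted p = 0.0129), RLE size factors (0.0498), the filter of 10 counts (0.0326), and without A375 Etoposide replicate 3 (0.0349) or SK-MEL-28 Etoposide + Rapamycin replicate 2 (0.0435); the cause was not tested.

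Leaving out 1 library gave 913 to 1202 genes in A375, 816 to 954 in SK-MEL-28, 2264 to 2366 between the lines and 594 to 1315 for the difference of responses, and 3, 1 to 2, 3 and 3 to 4 of the 7 members. The lowest counts for the difference were 594 without A375 Etoposide + Rapamycin replicate 3, 616 without SK-MEL-28 Etoposide replicate 2, 642 without A375 Etoposide replicate 3, 705 without SK-MEL-28 Etoposide replicate 3 and 710 without SK-MEL-28 Etoposide + Rapamycin replicate 2. In SK-MEL-28, the log2 fold change of THBS2 ranged from -0.030 (without Etoposide + Rapamycin replicate 1, where THBS1 was called as the second member) to 0.22, and that of TNC from -0.17 (without replicate 1, adjusted p = 0.0299, below a 1.5-fold change) to 0.042 (without replicate 2 of that group). With library totals as the scaling, 41.5% of the genes called in A375 were higher, against 52.5% with TMM. Of the single values of all 9 members, 540 kept their direction and side of the threshold. Another 7 passed only under the alternative and 2 changed sign. These counts include SPP1 and ESM1, which were chosen from these libraries, so for those genes they are descriptions. ESM1, with 82 to 558 counts, was the least precisely measured.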
